A study of Mus musculus with 6 samples.

Results

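The RNA of 8 genes that luminal progenitor cells of the mammary gland are known to express was followed in isolated mammary epithelial cells of *fat-1* and wild-type (WT) mice. The genes were *Kit*, *Aldh1a3*, *Cd14*, *Lcn2*, *Ltf*, *Wfdc18*, *Plet1* and *Tspan8*, and they were taken by symbol from a matrix of 61880 rows that fall into 53912 loci. Each gene was counted as the sum of all rows that carry its locus number, called the locus sum, and also as the row that carries its symbol. There were 3 *fat-1* and 3 WT samples. All came from female FVB/NJ mice aged 6 to 8 weeks that were kept for life on a modified AIN93G diet with 10% safflower oil by weight (22% of energy as fat), an oil rich in *n*-6 fatty acids. The *fat-1* mice carry a *Caenorhabditis elegans* desaturase that makes *n*-3 from *n*-6 fatty acids, and the WT mice do not, so the comparison asks what a supply of *n*-3 fatty acids made by the animal itself changes in these cells. Each sample was a pool of inguinal glands of several mice from which the lymph nodes had been cut out. The cells were released with enzymes and were not sorted. Values per sample are given in the order of samples 1, 2 and 3 of each genotype.

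The ductal epithelium of the gland has an outer basal layer and an inner luminal layer. The luminal layer holds hormone-sensing cells, which carry the estrogen and progesterone receptors, and receptor-negative progenitor cells, from which the milk-secreting alveolar cells of pregnancy arise. The progenitors respond to Kit ligand, have retinaldehyde dehydrogenase activity, and already make antimicrobial proteins of milk before any pregnancy. Several of the 8 genes are active in other cells too: *Kit* in mast cells, *Cd14* in macrophages and monocytes, and *Lcn2* and *Ltf* in neutrophils.

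Sample totals lay between 204539059 and 232148824 counts, and 24061 loci had enough counts to be tested. Markers of several cell types were present. The summed level of 8 luminal markers (*Epcam*, *Krt8*, *Krt18*, *Krt19*, *Krt7*, *Cdh1*, *Cldn3* and *Cldn4*) ran from 1145 to 5097 CPM (counts scaled to the library size) in *fat-1* and from 1201 to 3858 CPM in WT samples. The summed level of 10 lymphocyte markers ran from 712 to 1595 CPM in *fat-1* and from 702 to 1651 CPM in WT samples, and that of 5 fibroblast markers from 1337 to 4788 CPM and from 2859 to 4539 CPM. No row named the *fat-1* transgene, so the genotype labels were not checked against it. Nothing in the labels tells which mice entered which pool, so p-values measure the spread between these pools.

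All 8 genes were detected in all 6 samples. Per kilobase of annotated exon, so that genes of different length can be compared, the mean level over the 6 samples was 136 CPM for *Lcn2*, 117 CPM for *Plet1*, 67.7 CPM for *Aldh1a3*, 50.8 CPM for *Ltf*, 39.5 CPM for *Wfdc18*, 24.0 CPM for *Cd14*, 3.76 CPM for *Kit* and 1.99 CPM for *Tspan8*. Neighbours in this order overlapped in the range of their levels per kilobase over the samples, except *Cd14* and *Kit*. In every sample *Kit* and *Tspan8* were below the other 6 genes. The genes that encode secreted products (*Lcn2*, *Ltf* and *Wfdc18*) thus did not stand together at the top of the order.

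*Kit*, the receptor tyrosine kinase for stem cell factor, measured 36.8, 24.6 and 30.9 CPM in the *fat-1* pools and 44.7, 34.5 and 29.6 CPM in the WT pools. It was the steadiest of the 8, with a 1.82-fold distance between the highest and the lowest sample. The group means were 30.8 ± 6.11 CPM in *fat-1* and 36.3 ± 7.70 CPM in WT (SD, n = 3), and the groups overlapped.

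*Aldh1a3*, a retinaldehyde dehydrogenase that makes retinoic acid, had 896, 123 and 140 CPM in the *fat-1* pools and 410, 199 and 106 CPM in the WT pools. *fat-1* sample 1 stood far above the rest, and the highest and lowest samples differed 8.46-fold, the widest distance of the 8 genes. The means were 387 ± 442 CPM in *fat-1* and 238 ± 156 CPM in WT (SD, n = 3).

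*Cd14*, the co-receptor through which Toll-like receptor 4 senses lipopolysaccharide, had 48.4, 22.1 and 36.1 CPM in the *fat-1* pools and 58.2, 55.5 and 29.3 CPM in the WT pools. WT samples 1 and 2 were above all *fat-1* samples, and WT sample 3 was below *fat-1* samples 1 and 3. The means were 35.5 ± 13.2 CPM in *fat-1* and 47.7 ± 16.0 CPM in WT (SD, n = 3).

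Among the secreted defense proteins, *Lcn2* encodes lipocalin 2, which withholds iron from bacteria by binding their siderophores. It had 587, 203 and 324 CPM in the *fat-1* pools and 414, 348 and 268 CPM in the WT pools, so that the *fat-1* samples held both the highest and the lowest value. *Ltf* encodes lactoferrin, the iron-binding protein of milk and of neutrophil granules. It had 292, 87.1 and 118 CPM in the *fat-1* pools and 238, 191 and 125 CPM in the WT pools. Here 1 *fat-1* sample was above and 2 were below all WT samples. *Wfdc18* encodes a small secreted protein with a whey acidic protein core. Its levels of 74.9, 16.6 and 49.0 CPM in *fat-1* and 72.8, 51.7 and 24.5 CPM in the WT pools again put the *fat-1* samples at both ends.

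Of the surface proteins, *Plet1* encodes a glycosylphosphatidylinositol-anchored protein. It had 540, 105 and 159 CPM in the *fat-1* pools and 276, 174 and 116 CPM in the WT pools, with *fat-1* sample 1 again far above the other samples. *Tspan8* encodes a tetraspanin and was the rarest of the 8, with 998, 181 and 641 counts in *fat-1* and 1182, 1149 and 227 counts in the WT pools. These correspond to 4.73, 0.844 and 3.08 CPM and to 5.52, 5.07 and 1.10 CPM. Both genotypes had a sample near 1 CPM and a sample near 5 CPM.

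**Figure D1:**
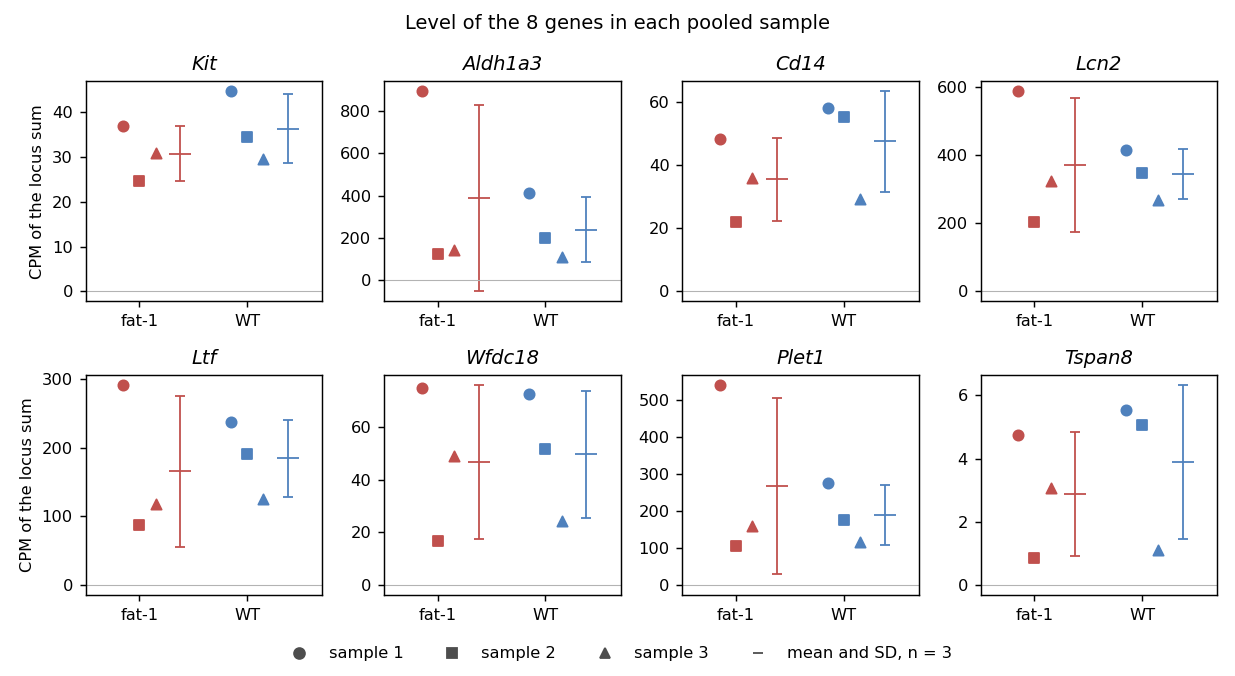
Level of each gene (CPM of the locus sum, linear axis from 0) in the 3 *fat-1* and 3 WT samples, with the mean and SD (n = 3) to the right of each group. *fat-1* sample 1 was the highest of the 6 samples for 5 genes and *fat-1* sample 2 the lowest for 7, and the groups overlapped for all 8.

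The same samples were high or low for most genes. *fat-1* sample 1 was the highest of the 6 for *Aldh1a3*, *Lcn2*, *Ltf*, *Wfdc18* and *Plet1*, and WT sample 1 was the highest for *Kit*, *Cd14* and *Tspan8*. *fat-1* sample 2 was the lowest for 7 genes, and WT sample 3 was the lowest for *Aldh1a3* and the fifth for 6 genes. The coefficient of variation over the 6 samples ran from 20.6% for *Kit* to 98.3% for *Aldh1a3*, whereas the median of the 14659 tested loci with a mean of at least 1 CPM was 13.3%. It was above that of 67.9% of these loci for *Kit* and above that of 99.8% of them for *Aldh1a3*.

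Across the 28 pairs of genes, Pearson's r of log2(CPM + 1) over the 6 samples ran from 0.683 (*Aldh1a3* and *Cd14*) to 0.984 (*Aldh1a3* and *Plet1*), with a median of 0.886. After Benjamini–Hochberg adjustment over the 28 pairs, 15 pairs were at or under 0.05 by the exact permutation test of r, and 15 by that of Spearman's rho. *Cd14* and *Tspan8* ranked the samples in the same order (r = 0.973, rho = 1.00, both adjusted p = 0.0194, exact permutation test, n = 6), as did *Lcn2* and *Plet1* (r = 0.968, rho = 1.00, both adjusted p = 0.0194). A further r left out the 2 samples whose level of the first-named gene lay farthest from the median of that gene. For *Cd14* both were at the low end and for *Aldh1a3* both at the high end. This r was 0.989 for *Cd14* and *Tspan8*, 0.989 for *Lcn2* and *Plet1*, and 0.835 for *Aldh1a3* and *Plet1*. Other pairs leaned on the samples left out: among those that had passed, r fell from 0.962 to 0.630 for *Wfdc18* and *Tspan8* and from 0.926 to 0.517 for *Cd14* and *Wfdc18*. Among those that had not, it fell from 0.812 to 0.288 for *Cd14* and *Lcn2* and from 0.712 to 0.282 for *Cd14* and *Plet1*.

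The bases in front of the start sites of the genes were also compared, and whether they bear on the shared variation was not tested. RefSeq promoters of GRCm38.p6 (250 bases before the start) were used for 6 of the 8 genes. None was at hand for *Aldh1a3*, and *Cd14* was left out because sequence of its chromosome was not used here. Those of *Ltf*, *Plet1* and *Wfdc18* are printed as examples, without annotated exons. Capitals mark matches on either strand to the ETS core GGAAG, the C/EBP motif TTGCNNAA, the AP-1 motif TGANTCA and the TATA box TATAAA, and no matches of different motifs overlapped.
*Ltf*, chr9:111019042-111019270, plus strand: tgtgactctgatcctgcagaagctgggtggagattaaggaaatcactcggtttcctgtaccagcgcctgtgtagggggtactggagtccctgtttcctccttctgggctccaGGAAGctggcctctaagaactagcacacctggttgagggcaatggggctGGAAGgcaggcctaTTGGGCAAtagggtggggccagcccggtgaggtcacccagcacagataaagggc
*Plet1*, chr9:50494275-50494524, plus strand: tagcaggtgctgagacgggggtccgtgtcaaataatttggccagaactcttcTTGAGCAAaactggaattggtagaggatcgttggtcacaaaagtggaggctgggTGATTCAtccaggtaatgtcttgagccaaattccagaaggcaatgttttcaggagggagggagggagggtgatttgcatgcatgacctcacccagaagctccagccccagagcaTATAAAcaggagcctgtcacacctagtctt
*Wfdc18*, chr11:83708754-83709003, plus strand: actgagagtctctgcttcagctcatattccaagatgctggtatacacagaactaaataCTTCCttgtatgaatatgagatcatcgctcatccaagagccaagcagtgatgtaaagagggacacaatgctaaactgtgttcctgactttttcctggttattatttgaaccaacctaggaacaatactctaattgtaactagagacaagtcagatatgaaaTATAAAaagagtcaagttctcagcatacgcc

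The C/EBP motif was found in the windows of 4 of the 6 genes (*Lcn2*, *Ltf*, *Plet1* and *Tspan8*), and 9.56% of 32851 mouse promoters of the same length hold it. The windows of *Lcn2* and *Tspan8* lie inside the annotated genes, which begin upstream of the RefSeq starts used here. Of the 250 window bases, 197 for *Lcn2*, 71 for *Kit*, 21 for *Ltf* and 13 for *Tspan8* are in annotated exons. The ETS core was found in the windows of *Kit*, *Lcn2*, *Ltf* and *Wfdc18*, that is 4 of 6, beside 64.1% of all promoters. A TATA box stood 30 bases before the start of *Plet1* and 31 bases before that of *Wfdc18* (2 of 6, beside 12.4%), and the AP-1 motif was found only in front of *Plet1* among these 6 (1 of 6, beside 6.75%). The STAT motif TTCNNNGAA (7.02% of all promoters) and the NF-kB motif (GGG, any 2 bases, TTTCC; 1.41%) had no match in these 6 windows. These are matches of letters in a short window and no measurement of binding.

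No difference between *fat-1* and WT was detected for any of the 8 genes. By the quasi-likelihood test of edgeR with Benjamini–Hochberg adjustment over all 24061 loci, 0 of 8 passed the threshold of 0.05 after adjustment and 0 of 8 passed it without. Over all loci, 0.0% passed at the adjusted and 1.14% (274 loci) at the unadjusted threshold. DESeq2 called 8 loci (0.0332%) and edgeR's exact test 6 loci (0.0249%) at the adjusted threshold. At the unadjusted threshold these tests passed 359 and 257 loci (1.49% and 1.07%), and by each test 0 of the 8 genes passed at either threshold. The samples of the 2 genotypes overlapped for all 8 genes, while 4.15% of all loci had no overlap.

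The log2 fold change of *fat-1* relative to WT was positive for the genes in which *fat-1* sample 1 stood highest above the rest. It was 0.70 for *Aldh1a3* (95% interval −1.43 to 2.83), 0.51 for *Plet1* (−1.06 to 2.07) and 0.11 for *Lcn2* (−0.81 to 1.04). It was negative for *Kit* at −0.24 (−0.74 to 0.27), for *Cd14* at −0.42 (−1.30 to 0.45), for *Ltf* at −0.16 (−1.31 to 1.00), for *Wfdc18* at −0.08 (−1.53 to 1.36) and for *Tspan8* at −0.44 (−2.27 to 1.39). Adjusted p-values of the quasi-likelihood test were 1.00 for all 8 genes, and the lowest unadjusted p-value was 0.284 (*Cd14*). The median of the 8 was −0.12 and that of all tested loci was 0.00, and 5 of 8 values were below 0 beside 49.4% of all loci. The intervals are wide: for *Kit* they left room for *fat-1* levels between 0.598 and 1.20 times the WT level, and for *Aldh1a3* for levels between 0.370 and 7.11 times it. An exact two-sided permutation test of log2(CPM + 1), which cannot go below 0.1 with 3 against 3 samples, gave p-values from 0.5 to 1.0 for the 8 genes.

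With the rows that carry the symbol in place of the locus sums, the 8 log2 fold changes were −0.23 (*Kit*), 0.70 (*Aldh1a3*), −0.42 (*Cd14*), 0.17 (*Lcn2*), −0.15 (*Ltf*), −0.08 (*Wfdc18*), 0.50 (*Plet1*) and −0.43 (*Tspan8*). By the quasi-likelihood test 0 of 8 rows passed at the adjusted threshold (0.0% of 30683 rows) and 0 of 8 at the unadjusted threshold (2.21%, or 678 rows). At the adjusted threshold DESeq2 called 93 rows (0.303%) and the exact test 32 rows (0.104%), at the unadjusted threshold 928 rows (3.02%) and 614 rows (2.0%), and none of the 8 was among them.

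The direction of several genes rested on 1 sample. Without *fat-1* sample 1, all 8 log2 fold changes were below 0, with a median of −0.65, while 51.2% of all loci were below 0. *Aldh1a3* then stood at −0.84, *Plet1* at −0.51 and *Lcn2* at −0.37. *Ltf* stood at −0.84 and was the only 1 of the 8 to pass the unadjusted threshold, with an adjusted p of 1.00 by the quasi-likelihood test, beside 1.96% of all loci at the unadjusted threshold. The luminal markers moved with this choice, since 8 of 8 were then below 0, with a median of −0.62. Without *fat-1* sample 2, the lowest sample for 7 genes, 2 of 8 genes were below 0 and their median was 0.23. Without WT sample 1 the median was 0.17 and without WT sample 3 it was −0.36. No gene passed the adjusted threshold in any of these fits.

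**Figure D2:**
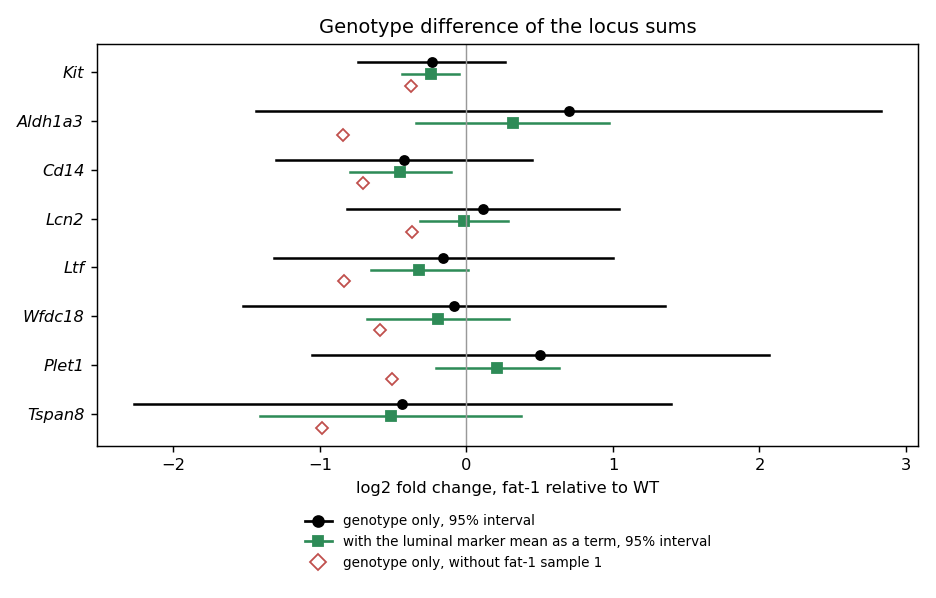
log2 fold change of *fat-1* relative to WT for the locus sums, from the fit with genotype alone (black, with its 95% interval), the fit with the luminal marker mean as a further term (green, with its 95% interval), and the fit without *fat-1* sample 1 (open diamonds). All 8 black intervals include 0, the green intervals of *Kit* and *Cd14* do not, and all 8 diamonds lie below 0.

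In RNA of whole isolates, fewer cells of a type and less RNA per cell cannot be told apart, so the 8 genes were set beside markers of the cell types that could make them. All 8 were positively correlated with the level of the 8 luminal markers, whose mean log2(CPM + 1) was 9.05, 6.92 and 7.80 in the *fat-1* pools and 8.76, 7.92 and 7.02 in the WT pools. Pearson's r with it ran from 0.844 for *Cd14* to 0.958 for *Plet1*. Of 40 relations with 5 marker means, 10 passed 0.05 by the exact permutation test of r after adjustment over the 40. For the luminal markers these were *Plet1* (r = 0.958, adjusted p = 0.0185; rho = 1.00, adjusted p = 0.0278), *Lcn2* (r = 0.957, adjusted p = 0.0185; rho = 1.00, adjusted p = 0.0278), *Wfdc18* (r = 0.947, adjusted p = 0.0397; rho = 1.00, adjusted p = 0.0278), *Aldh1a3* (r = 0.940, adjusted p = 0.0278; rho = 0.943, adjusted p = 0.0667) and *Ltf* (r = 0.929, adjusted p = 0.0397; rho = 0.943, adjusted p = 0.0667). *Kit* (r = 0.871), *Tspan8* (r = 0.892) and *Cd14* (r = 0.844) missed the threshold, with adjusted permutation p-values of 0.0675, 0.0859 and 0.0859. By rho, fewer of the 40 relations passed after adjustment. They were *Plet1*, *Lcn2* and *Wfdc18* with the luminal mean, and *Aldh1a3* with the macrophage mean below. With the 2 samples left out whose luminal mean lay farthest from its median, r stayed between 0.819 (*Ltf*) and 0.995 (*Lcn2*).

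A least-squares line through the 6 samples gave, for each unit of log2 of the luminal mean, 0.29 log2 units for *Kit*, 0.52 for *Cd14*, 0.57 for *Lcn2*, 0.71 for *Ltf*, 0.82 for *Tspan8*, 0.92 for *Wfdc18*, 0.96 for *Plet1* and 1.28 for *Aldh1a3*. These slopes describe 6 points each and were not compared by a test, and for *Kit*, *Cd14* and *Tspan8* the relation had missed the adjusted threshold. The added 1 CPM compresses *Tspan8*, whose samples spanned 1.82 on this scale and 2.71 in log2 CPM, so that its slope depends on that addition.

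**Figure D3:**
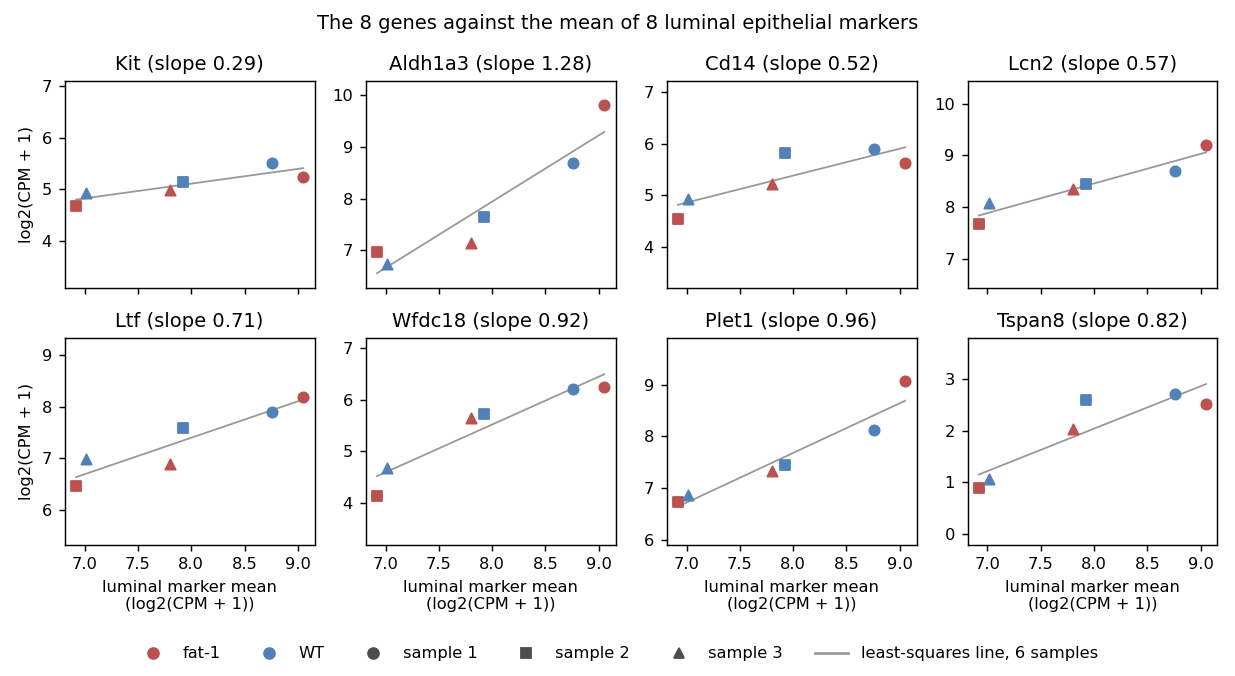
Level of each gene (log2(CPM + 1), all vertical axes of equal length) against the mean of 8 luminal markers (log2(CPM + 1)) in the 6 samples, with a least-squares line. The slope runs from 0.29 for *Kit* to 1.28 for *Aldh1a3*.

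The macrophage, neutrophil and mast cell markers took other patterns, while the basal markers took a pattern like that of the luminal markers. The macrophage and monocyte mean ran against all 8 genes, with r from −0.993 (*Aldh1a3*, adjusted p = 0.0185; rho = −1, adjusted p = 0.0278; exact permutation tests) to −0.671 (*Cd14*, adjusted p = 0.206), and r was −0.958 and −0.732 for these genes without the 2 farthest samples. *Lcn2*, *Ltf* and *Plet1* also passed by r (−0.895, −0.884 and −0.970) but not by rho (adjusted p = 0.0667, 0.106 and 0.0667, exact permutation test). Without the 2 farthest samples their r was −0.579, −0.548 and −0.799, so that the relations of *Lcn2* and *Ltf* leaned on these samples. Without *Cd68*, whose locus also holds *Eif4a1*, the 9 remaining macrophage markers summed to between 49.9 and 94.0 CPM in *fat-1* and between 59.1 and 104 CPM in WT samples. Lymphocyte markers were not among the 40 relations. Their mean log2(CPM + 1) was 4.93, 6.03 and 5.53 in the *fat-1* pools and 4.83, 5.15 and 6.05 in the WT pools. It was lowest in sample 1 of each genotype, where the luminal mean was highest. Whether the negative r is particular to macrophages was not tested. The neutrophil mean had r from −0.851 (*Wfdc18*) to −0.575 (*Kit*) over the 6 samples, and no relation passed after adjustment. Without the 2 farthest samples r turned positive for 4 of the 8 genes, to 0.694 for *Kit*, 0.345 for *Cd14*, 0.299 for *Tspan8* and 0.255 for *Wfdc18*, so that its direction rested on those samples. Its 10 markers summed to between 27.4 and 70.6 CPM in *fat-1* and between 28.9 and 49.1 CPM in WT samples, with a mean under 1 CPM for *Ly6g*, *Mpo*, *Elane*, *Retnlg* and *Cxcr2*. For the mast cell mean r ran from −0.563 (*Aldh1a3*) to 0.0995 (*Kit*), and no relation passed after adjustment. Without the 2 farthest samples it was positive for all 8 genes, among them 0.579 for *Kit*, 0.759 for *Wfdc18*, 0.730 for *Lcn2* and 0.655 for *Plet1*. The 8 mast cell markers summed to between 20.4 and 63.6 CPM in *fat-1* and between 52.2 and 73.1 CPM in WT samples, and their part in the level of *Kit* was not tested. The basal mean was positively correlated with all 8 genes, with r from 0.838 (*Ltf*) to 0.953 (*Wfdc18*, adjusted p = 0.0444; rho = 0.829, adjusted p = 0.106; exact permutation tests). This r was above that with the luminal mean for *Kit* (0.885 beside 0.871), *Wfdc18* (0.953 beside 0.947) and *Tspan8* (0.909 beside 0.892), and below it for the rest. Whether the positive r is particular to luminal or to basal cells was not tested. Without the 2 farthest samples the r with the basal mean fell to 0.365 for *Cd14* and 0.465 for *Tspan8* and stayed at 0.942 for *Wfdc18*.

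When the mean of the luminal markers was added to the fit, the intervals narrowed and *Kit* and *Cd14* separated from 0 without adjustment for many tests. *Kit* stood at −0.24 (95% interval −0.44 to −0.05, adjusted p = 1.00, quasi-likelihood test) and *Cd14* at −0.45 (−0.80 to −0.11, adjusted p = 1.00). That is 2 of 8 genes beside 2.57% of all loci at the unadjusted threshold, and 0 of 8 beside 0.0% at the adjusted threshold. *Ltf* stood at −0.32 (−0.65 to 0.01), *Tspan8* at −0.52, *Wfdc18* at −0.19, *Lcn2* at −0.02, *Plet1* at 0.21 and *Aldh1a3* at 0.31, and each of these intervals included 0. With the luminal keratins *Krt8* and *Krt18* as the added term, *Kit* (−0.26), *Cd14* (−0.48) and *Ltf* (−0.36) passed the unadjusted threshold, 3 of 8 beside 2.82% of loci, and all adjusted p-values were 1.00. These fits have 3 residual degrees of freedom, and the luminal markers were measured in the same libraries as the 8 genes. All 8 genes were correlated with the added luminal mean (r of 0.844 or more). Their standard errors fell with it, from 0.208 to 0.0806 for *Kit* and from 0.362 to 0.143 for *Cd14*. The shares over all loci are therefore not a like measure for these 8 genes. The fits with an added term were not repeated with a sample left out.

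Per luminal keratin, that is relative to the summed CPM of *Krt8* and *Krt18*, *Plet1* was nearly level: it was 29.9%, 26.0% and 24.1% of the keratins in the *fat-1* pools and 21.4%, 22.9% and 27.8% in the WT pools. Its log2 ratio spanned 0.48, against 2.36 for its log2 CPM. *Kit* did the opposite, since its log2 ratio spanned 1.80 and its log2 CPM 0.86. It was 2.04%, 6.12% and 4.70% of the keratins in the *fat-1* pools and 3.47%, 4.54% and 7.12% in the WT pools, lowest in the samples that were richest in keratins. *Aldh1a3* was highest in *fat-1* sample 1 on this scale as well, at 49.6% of the keratins beside 21.3% to 31.8% in the other 5 samples. The difference of the mean log2 ratio, *fat-1* minus WT, was −0.31 for *Kit*, 0.20 for *Aldh1a3*, −0.50 for *Cd14*, −0.07 for *Lcn2*, −0.38 for *Ltf*, −0.27 for *Wfdc18*, 0.15 for *Plet1* and −0.50 for *Tspan8*. The groups overlapped for all 8, and exact permutation p-values lay between 0.2 (*Ltf*) and 1.0 (*Lcn2*), where 0.1 is the lowest that 3 against 3 samples allow. By this test *Kit* had 0.7 and *Cd14* 0.3. When the rows with the symbol were used for genes and keratins alike, *Aldh1a3* and *Plet1* turned to −0.0850 and −0.18, and *Cd14* (−0.79) and *Ltf* (−0.67) reached an exact permutation p of 0.1. In that setting *Krt8* and *Krt18* lose the counts of their rows without a symbol, and the part of this loss in the shift was not tested. The share of all rows that reach 0.1 on this ratio was not computed.

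**Figure D4:**
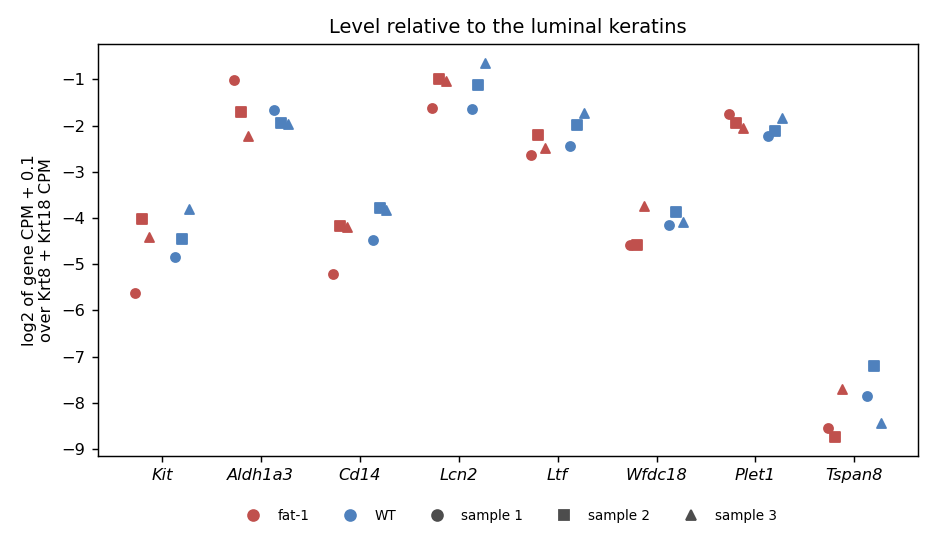
log2 of the CPM of each gene (plus 0.1) over the summed CPM of *Krt8* and *Krt18* in the 3 *fat-1* and 3 WT samples. The 6 values of *Plet1* span 0.48 log2 units and those of *Kit* span 1.80, and the groups overlap for all 8 genes.

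*Lcn2* and *Plet1* had counts in a second row of their locus that carries no symbol, and the other 6 genes had 1 row each. For *Lcn2* this row held 23.0%, 20.9% and 16.5% of the locus counts in the *fat-1* pools and 22.2%, 26.4% and 21.6% in the WT pools. For *Plet1* it held 0, 3020 and 2404 counts in the *fat-1* pools and 33, 21 and 2625 counts in the WT pools. The 3 samples with the highest *Plet1* level therefore had next to none of it, while in the other 3 it made up 13.4%, 7.27% and 11.0% of the locus. The row alone thus set *Plet1* in *fat-1* sample 2 at 90.9 CPM, beside 105 CPM for the locus sum. The antisense gene *Plet1os* overlaps 261 of the 1947 exonic bases of *Plet1* and had 1.68 to 4.70 CPM, and whether the counting used strand is not given in the sources used here.

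**Figure D5:**
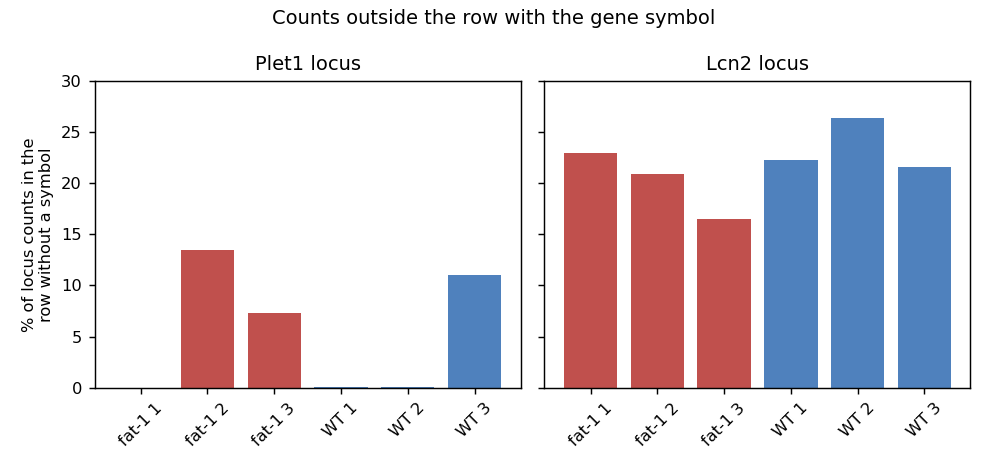
Share of the locus counts (%) that lay in the row without a symbol, for *Plet1* and *Lcn2* in each sample (*fat-1* red, WT blue). For *Plet1* the bar is at or near 0 in *fat-1* sample 1 and WT samples 1 and 2 and reaches 13.4% in *fat-1* sample 2, and for *Lcn2* it lies between 16.5% and 26.4%.

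No difference was detected for other genes of luminal progenitors either. Of 13 such genes, 0 passed the quasi-likelihood test at the adjusted and 0 at the unadjusted threshold, and 9 of 13 were below 0, with a median log2 fold change of −0.08. *Krt15*, a keratin of progenitor cells, had the smallest p-value of this list with a log2 fold change of −0.61 at 0.0606 to 0.430 CPM. *Elf5*, the transcription factor that drives alveolar differentiation, had 12.1, 3.70 and 12.4 CPM in the *fat-1* pools and 24.3, 16.4 and 4.41 CPM in the WT pools. Without *fat-1* sample 1, 12 of the 13 genes were below 0 and their median was −0.61, and without WT sample 3 it was −0.29 with 12 below 0. Without WT sample 1 the direction turned, with 4 of 13 below 0 and a median of 0.25, and so it did without *fat-1* sample 2, with 5 of 13 and 0.17. Among 10 markers of the hormone-sensing luminal cells, 0 passed at either threshold and all 10 were below 0 (median −0.16). This too rested on single samples, since 5 of 10 were below 0 without WT sample 1 (median 0.10) and 4 of 10 without *fat-1* sample 2 (median 0.06). The smallest p-value was that of *Areg*, the estrogen-responsive epidermal growth factor family ligand, at −0.52.

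The other secretory defense genes fell into different sample patterns. Of 17 tested genes, 0 passed at the adjusted threshold, and 1 passed at the unadjusted threshold, beside 1.14% of all loci. Of the 17, 14 were below 0 (median −0.14), beside 49.4% of all loci. With 1 sample left out this count ran from 11 (without *fat-1* sample 1, *fat-1* sample 2 or WT sample 2) to 15 (without *fat-1* sample 3). The 1 gene that passed was *Saa2*, an acute-phase serum amyloid A, with 0.0332, 0.0140 and 0.0481 CPM in the *fat-1* pools and 0.145, 0.119 and 0.0632 CPM in the WT pools. Its log2 fold change was −1.78 (adjusted p = 1.00, quasi-likelihood test), at a level near the limit of counting. The protease inhibitor *Slpi* (1480.4, 180 and 275 CPM in *fat-1*; 667, 289 and 200 CPM in the WT pools) and *Wfdc2* (245, 19.7 and 40.9 CPM; 117, 55.3 and 27.2 CPM) were highest in *fat-1* sample 1, as *Aldh1a3* and *Plet1* were. The chemokine *Cxcl1* (1769.9, 3656 and 3697 CPM; 2615, 3768 and 3653 CPM) and complement *C3* (715, 1515 and 1531 CPM; 833, 1586 and 1436 CPM) were lowest in that sample. Leaving aside *Krt15*, *Saa2* and *Areg*, the genes of these lists that carry values here, and *Kitl*, *Aldh1a1* and *Aldh1a2* in what follows, were picked after their values had been seen.

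A list of 9 genes held ligands, co-receptors and receptors of some of the 8 proteins, and also the adaptor *Myd88* and the protease *Mmp9*. Of these 9 genes, 0 passed at either threshold and 8 of 9 were below 0 (median −0.19), beside 49.4% of all loci. *Tlr4*, the partner of CD14, had the smallest p-value, with 24.2, 26.1 and 31.3 CPM in the *fat-1* pools and 30.2, 43.2 and 27.8 CPM in the WT pools and a log2 fold change of −0.31. *Kitl*, the ligand of Kit, had 131, 179 and 201 CPM in the *fat-1* pools and 178, 233 and 172 CPM in the WT pools. *Kitl* was thus lowest in *fat-1* sample 1, where *Kit* was second highest. Of 13 genes of the retinoic acid pathway, in which *Aldh1a3* acts, 0 passed at either threshold and 9 of 13 were below 0 (median −0.18). Leaving out WT sample 2 brought the medians of the defense, ligand and retinoic acid lists to −0.02, −0.07 and −0.05, and leaving out *fat-1* sample 3 brought them to −0.33, −0.32 and −0.54. *Cyp26b1*, which degrades retinoic acid, had the smallest p-value and a log2 fold change of −0.96, with 10.3 CPM in WT sample 3 beside 1.76 to 4.43 CPM in the other 5 samples. The related dehydrogenases were rarer than *Aldh1a3* in each sample, with 2.21 to 10.9 CPM for *Aldh1a1* and 1.27 to 5.41 CPM for *Aldh1a2*. Per kilobase of exon their means were 1.55 and 1.45 CPM, beside 67.7 CPM for *Aldh1a3*.

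By the quasi-likelihood test 0 of the cell type markers passed the adjusted threshold. Of the 8 luminal markers 7 were above 0 (median 0.20), but leaving out *fat-1* sample 1 turned the median to −0.62, and leaving out WT sample 3 turned it to −0.11. *Cldn4* had the highest mean CPM of them (237 to 1155 CPM), though not per kilobase, and *Krt19* had the smallest p-value (log2 fold change −0.43). Of the 9 basal markers 6 were above 0 (median 0.06, and from −0.33 without *fat-1* sample 1 to 0.62 without WT sample 1), and *Trp63* had the smallest p-value (−0.73). The mast cell markers had a median of −0.40, with 7 of 8 below 0 and the smallest p-value for *Cpa3* (−0.84). Without *fat-1* sample 1 that median was −0.05, with 5 of 8 below 0, and without *fat-1* sample 3 it was −0.92. The smallest p-values were 0.245 among the macrophage markers (*Cd163*), 0.111 among the neutrophil markers (*Elane*), 0.622 among the lymphocyte markers (*Cd8a*), 0.299 among the fibroblast markers (*Dcn*) and 0.0522 among the endothelial markers (*Emcn*). *Fabp4*, at 83.2 to 106 CPM in *fat-1* and 112 to 126 CPM in WT samples, was the only 1 of these markers at the unadjusted threshold (log2 fold change −0.31, adjusted p = 1.00 by the quasi-likelihood test), beside 1.14% of all loci. The defining adipocyte genes *Adipoq*, *Plin1*, *Lep* and *Cidec* had means under 1 CPM. The genotypes did not overlap for 2 of 5 endothelial markers (*Cdh5* and *Tek*) and for *Fabp4*, beside 4.15% of all loci. With all samples 0 of 5 fibroblast and 0 of 5 endothelial markers passed the unadjusted threshold. Without *fat-1* sample 3, 3 of 5 fibroblast markers did (1.62% of loci), and without WT sample 3, 3 of 5 endothelial markers did (2.19%). The marker with the highest mean CPM, which is not scaled to gene length, was *Mcpt4* for mast cells (5.79 to 23.3 CPM), *S100a9* for neutrophils (9.09 to 25.6 CPM), *Pecam1* for endothelial cells (59.7 to 119 CPM), *Cd79a* for lymphocytes (266 to 521 CPM, in a locus with *Arhgef1*) and *Ly6a* for hormone-sensing cells (486 to 620 CPM, in a locus with *Ly6i*). *Cd68* and *Tagln* led the macrophage and basal lists through loci that they share with other genes. Within the hormone-sensing list *Ly6a* and *Tnfsf11* were lowest in sample 1 of each genotype, where *Esr1*, *Pgr*, *Prlr*, *Foxa1*, *Prom1* and *Wnt4* were highest. *Areg* and *Cited1* followed neither pattern, so *Ly6a* does not stand for its list.

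The pattern of the 8 genes was common among the loci of this table. Of 10959 named loci with a mean of at least 1 CPM, 1003 (9.15%) had r of at least 0.95 with the mean of the 8 genes over the 6 samples. The 5 most alike were *Klhdc7a* (r = 0.999), *Efna5* (0.999), *Tent5b* (0.998), *Epn2* (0.998) and *S100a6* (0.998). *Klhdc7a* had 6.82, 0.680 and 2.05 CPM in the *fat-1* pools and 4.86, 3.06 and 1.20 CPM in the WT pools, the same order of samples as for *Lcn2*, *Wfdc18* and *Plet1*. Taken gene by gene, 760 loci (6.93% of 10966) had r of at least 0.95 with *Plet1*, 634 with *Wfdc18*, 582 with *Aldh1a3*, 567 with *Lcn2*, 394 with *Tspan8*, 212 with *Ltf*, 127 with *Cd14* and 77 (0.702%) with *Kit*. The 3 loci most alike were *Smad6*, *Rab4a* and *Pdap1* for *Kit*, *Serinc5*, *F2rl1* and *Scyl2* for *Aldh1a3*, *Sppl3*, *Dbi* and *Sfxn3* for *Cd14*, and *Tspan3*, *G6pdx* and *Fam83e* for *Lcn2*. They were *Dhrs7b*, *Cpt1a* and *Ccdc43* for *Ltf*, *Pcyox1*, *Atxn10* and *Rnf144b* for *Wfdc18*, *Rtn1*, *Kif16b* and *Vcl* for *Plet1*, and *Sulf2*, *Hr* and *Dnajc1* for *Tspan8*. These correlations describe 6 libraries that share a depth and a normalization, and carry no test.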

How the data were processed

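The authors aligned reads to GRCm38 by HISAT2 and quantified StringTie transcripts. The deposited matrix holds estimated counts, as whole numbers that are not normalized, so rounding changed nothing. How coverage became counts and which annotation was used are not given in the sources used here. The methods give the number of mice in a pool in 2 ways, so none is printed. Groups and sample numbers came from the labels, and 0 value columns lacked a sample. Here rows were added per locus, and CPM used TMM-scaled totals. Genotype was tested in R 4.3.3 with edgeR 4.0.16 (filterByExpr, TMM, glmQLFit with its newer method, quasi-likelihood F test, Benjamini–Hochberg over all loci or rows, threshold 0.05). The 95% intervals were derived from the F statistic. DESeq2 1.42.0, edgeR's exact test, other filters and scalings, leaving out each sample and a replicate block were alternatives. Keratin ratios used a pseudocount of 0.1, and other log2 values 1. The 8 genes, the gene lists and the promoter motifs were chosen with earlier results of these data known. Genes named by rule were the 8, the highest marker of a cell type, and the loci most alike in pattern. The rule also took the gene with the smallest p-value of each list (up to 2 at or under 0.05). *Elf5*, *Slpi*, *Wfdc2*, *Cxcl1*, *C3*, *Kitl*, *Aldh1a1* and *Aldh1a2* were outside this rule and were picked after their values had been seen. Depth was at least 204539059 counts in every sample. Summaries used Python 3.11.15, pandas 2.3.3, scipy 1.17.1 and matplotlib 3.10.9.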

Additional observations from a re-analysis of the deposited data

How the results depend on the processing

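No gene of the 8 passed the adjusted threshold with DESeq2, edgeR's exact test, the older quasi-likelihood method, DESeq2's size factors, no filter on low counts, rows added per symbol, or any sample left out, for locus sums or for rows. Leaving out 1 sample turned the sign of 6 genes. The log2 fold changes of the locus sums then ran from −0.84 to 1.34 for *Aldh1a3*, −0.51 to 0.89 for *Plet1*, −0.37 to 0.41 for *Lcn2*, −0.84 to 0.15 for *Ltf*, −0.59 to 0.32 for *Wfdc18* and −0.99 to 0.000408 for *Tspan8*. Those of the rows ran from −0.85 to 1.35 for *Aldh1a3*, −0.62 to 0.91 for *Plet1*, −0.28 to 0.46 for *Lcn2*, −0.84 to 0.15 for *Ltf*, −0.59 to 0.32 for *Wfdc18* and −0.99 to 0.00448 for *Tspan8*. Among the 8, *Kit* (−0.38 to −0.06) and *Cd14* (−0.70 to −0.17) kept their sign. With the luminal marker mean in the fit, *Lcn2* turned to −0.0164. The median difference of the 8 keratin ratios was −0.29, and −0.42 to −0.12 when a sample was left out. With only the rows that carry symbols it moved to −0.58, and *Aldh1a3* and *Plet1* turned to −0.0850 and −0.18, where *Krt8* and *Krt18* also lose the counts of their rows without a symbol. The replicate block left 0 of the 8 genes at the adjusted and 0 at the unadjusted threshold and gave 376 loci at the unadjusted threshold, beside 274. The deviations from the group means of samples that share a number had r = 0.799, −0.164 and 0.132. Those of *fat-1* sample 2 and WT sample 3, which differ in number, had r = 0.789. These r cannot decide whether samples of the same number were handled together, and the samples were treated as unpaired. Of the 40 relations with marker means, 10 passed by r with a pseudocount of 0.1, 9 without TMM and 11 when the shared loci of *Cd68* and *Tagln* were left out, the last chosen after seeing the data. Of the 132 tested genes of the other lists, 2 passed the unadjusted threshold (1.14% of all loci did), and between 1 (without WT sample 2, 0.824% of loci) and 8 (without *fat-1* sample 3, 1.62%, or without WT sample 3, 2.19%) did when a sample was left out. All comparisons rest on 3 pools a genotype, and for the rarest RNAs, such as *Saa2*, depth limits them too.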
